A study of Mus musculus with 4 samples.

Results

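Ctse, Slc45a3, Ptprv and Lad1 are 4 genes that lie in a 5 Mb window of mouse chromosome 1 (mm10), out of 124 genes of that window and 35275 genes in the whole table. They were chosen by their counts, which differed between the libraries of the 2 genotypes at both sorted steps in earlier work on these same libraries, so their genotype differences are given as a description without a test. Ctse encodes cathepsin E, an aspartic protease of endosomes. Slc45a3 encodes prostein, a membrane transporter of the SLC45 sugar transporter family, best known as a prostate protein in humans. Ptprv belongs to the receptor-type tyrosine phosphatases and has been described in the mouse as a p53 target. Lad1 encodes ladinin, a filament-associated protein of epithelial basement membranes. The 4 proteins are not known to share a pathway, and position is what joins them here.

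The libraries came from thymocytes of C57BL/6 mice aged 6 to 8 weeks, untreated and sorted by flow cytometry, with 1 library in each of 4 groups. The KO libraries came from Uba3ΔT mice, whose genotype label is Uba3-/-, and the WT libraries from Uba3F/F mice, labelled wild type. Each genotype gave a group 2 library, of cells sorted as TCRβint CD69hi, and a group 3 library, of cells with the TCRβhi CD69hi surface markers. The first is an earlier and the second a later step of positive selection. The driver of the deletion and the number of animals behind a library are not given in the sources used here, and the cell type label puts both KO libraries in group 3 and both WT libraries in group 2, against the titles, which were used.

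The product of Uba3 is needed to attach NEDD8, a small modifier related to ubiquitin, to cullins. Its counts were higher in the libraries labelled KO, and counts summed over a gene cannot show whether part of it was deleted. The libraries labelled KO held 647 counts in group 2 and 856 in group 3, against 453 and 356 in WT, so every direction below is that of a library labelled KO over a WT library. Library totals were 8043077 to 10299863 counts, and 12490 genes reached a level of 2 CPM (read counts scaled by library size) in at least 1 library and are called measured. The 15 defining thymocyte genes were all measured, with a summed level of 22440 to 25430 CPM in a library, and edgeR called 1 of them higher in the libraries labelled KO, the adaptor gene Lat. Of all measured genes, 2.93% were called higher for genotype. In bulk RNA of this kind, fewer cells of a type and less RNA per cell cannot be told apart. A difference between 2 libraries has no replicate check, and the 95% intervals given with ratios cover counting error only.

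Cathepsin E belongs to the pepsin-like proteases that are made as inactive precursors and mature in acidic compartments. It is known in antigen-presenting cells, where it acts in the processing of proteins for MHC class II, and in gastric epithelium and red cells. In the human prostate, transcripts that run from SLC45A3 into its neighbour ELK4 are known. Both genes also stand side by side on mouse chromosome 1, so Elk4 is given below beside Slc45a3.

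Start regions were available for 2 of the 4 genes, Slc45a3 and Lad1, from RefSeq on GRCm38.p6, and are shown for that reason. For Ptprv, the region of its divergent neighbour Ptpn7 is shown, since the start of Ptprv lies within it on the opposite strand. Each is 300 bases, from 250 before to 50 after the annotated start, printed 5′ to 3′ on the plus strand. Capitals mark the letters of any motif that was searched.
Slc45a3, plus strand, chr1:131962665-131962964: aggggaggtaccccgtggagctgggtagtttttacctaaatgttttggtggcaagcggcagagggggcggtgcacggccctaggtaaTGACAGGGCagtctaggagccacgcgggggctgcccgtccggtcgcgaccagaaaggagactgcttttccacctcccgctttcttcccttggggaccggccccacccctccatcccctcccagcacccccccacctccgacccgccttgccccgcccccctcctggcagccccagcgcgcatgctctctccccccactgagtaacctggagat
Ptpn7, plus strand, chr1:135132450-135132749: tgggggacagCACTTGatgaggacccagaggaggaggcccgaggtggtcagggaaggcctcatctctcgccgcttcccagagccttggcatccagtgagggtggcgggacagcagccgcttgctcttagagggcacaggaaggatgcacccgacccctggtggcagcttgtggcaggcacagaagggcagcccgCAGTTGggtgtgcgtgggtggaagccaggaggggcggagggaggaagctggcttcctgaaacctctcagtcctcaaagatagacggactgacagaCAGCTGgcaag
Lad1, plus strand, chr1:135818348-135818647: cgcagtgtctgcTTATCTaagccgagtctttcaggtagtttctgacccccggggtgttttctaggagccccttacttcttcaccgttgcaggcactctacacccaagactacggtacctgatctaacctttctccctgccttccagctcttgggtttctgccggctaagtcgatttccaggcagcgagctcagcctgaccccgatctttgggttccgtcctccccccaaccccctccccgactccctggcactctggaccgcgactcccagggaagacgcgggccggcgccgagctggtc
The motifs were searched on both strands. The antioxidant response element was spelled TGACNNNGC and the AP-1 site was spelled TGANTCA. The E-box, spelled CANNTG, reads as an E-box on either strand. The GATA motif was spelled AGATAA, with a second accepted form that was spelled TGATAA. The RUNX motif was spelled TGTGGT and the ETS motif was spelled CCGGAAG. The cyclic AMP response element was spelled TGACGTCA, and the IRF repeat was searched as well. The Slc45a3 region held 1 match, to the antioxidant response element, which 12.4% of the 32851 start regions in the table hold. The Ptpn7 region held 3 matches to the E-box, found in 72.3% of start regions. The Lad1 region held 1 match to GATA on the minus strand, found in 18.6% of start regions. A second annotated start of Slc45a3 further along the gene held 3 E-box matches and 1 GATA match. The matches describe letters, and no binding was measured.

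Ctse (ENSMUSG00000004552, plus strand, chr1:131638306-131675505 in mm10, protein coding, 3 annotated transcripts) was the most abundant of the 4 genes in WT and stood far lower in the libraries labelled KO at both steps. It had 313 counts (35.4 CPM after TMM scaling, which corrects library totals) in KO group 2, against 4801 counts (458 CPM) in WT group 2. In group 3 it had 498 counts (52.4 CPM) in the library labelled KO, against 3625 counts (444 CPM) in WT. Both libraries labelled KO were far below both WT libraries, and the WT libraries lay close together. The KO to WT ratio was 0.0773 in group 2 (95% interval 0.0688 to 0.0867) and 0.118 in group 3 (0.107 to 0.130), log2 folds of -3.67 and -3.07 with 0.5 CPM added to each level. The ratio in group 3 was 1.52 times that in group 2 (1.32 to 1.77, counting error only), and with 1 library in each group that difference was not tested.

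Slc45a3 (ENSMUSG00000026435, plus strand, chr1:131962967-131982969, protein coding, 4 annotated transcripts) starts 287 kb beyond the end of Ctse and was nearly without counts in the libraries labelled KO. It had 3 counts (0.339 CPM) in KO group 2, against 178 counts (17.0 CPM) in WT group 2. In group 3 it had 8 counts (0.841 CPM) in the library labelled KO, against 129 counts (15.8 CPM) in WT. The KO to WT ratio was 0.0200 in group 2 (0.00408 to 0.0594) and 0.0532 in group 3 (0.0225 to 0.108), so the size of the drop is known only loosely where so few counts were left. The 2 ratios differed by a factor of 2.66 with an interval of 0.693 to 10.2.

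Ptprv (ENSMUSG00000097993, minus strand, chr1:135108497-135132594) is annotated as a processed transcript in GENCODE M21, with 11 transcripts, and as a transcribed pseudogene in RefSeq. It had 24 counts (2.72 CPM) in KO group 2, against 118 counts (11.2 CPM) in WT group 2. In group 3 it had 16 counts (1.68 CPM) in the library labelled KO, against 81 counts (9.93 CPM) in WT. Both libraries labelled KO were below both WT libraries, by less than for Ctse or Slc45a3. The KO to WT ratio was 0.241 in group 2 (0.149 to 0.377) and 0.170 in group 3 (0.0925 to 0.292), log2 folds of -1.87 and -2.26.

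Lad1 (ENSMUSG00000041782, plus strand, chr1:135818598-135833342, protein coding, 3 annotated transcripts) went the other way. It had 87 counts (9.84 CPM) in KO group 2, against 2 counts (0.191 CPM) in WT group 2. In group 3 it had 185 counts (19.5 CPM) in the library labelled KO, against 14 counts (1.72 CPM) in WT. Both libraries labelled KO were above both WT libraries, and each group 3 library was above the group 2 library of its genotype. The ratio was 51.6 in group 2, with a wide interval of 13.9 to 433 since the WT library held 2 counts, and 11.3 in group 3 (6.59 to 21.2).

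**Figure D1:**
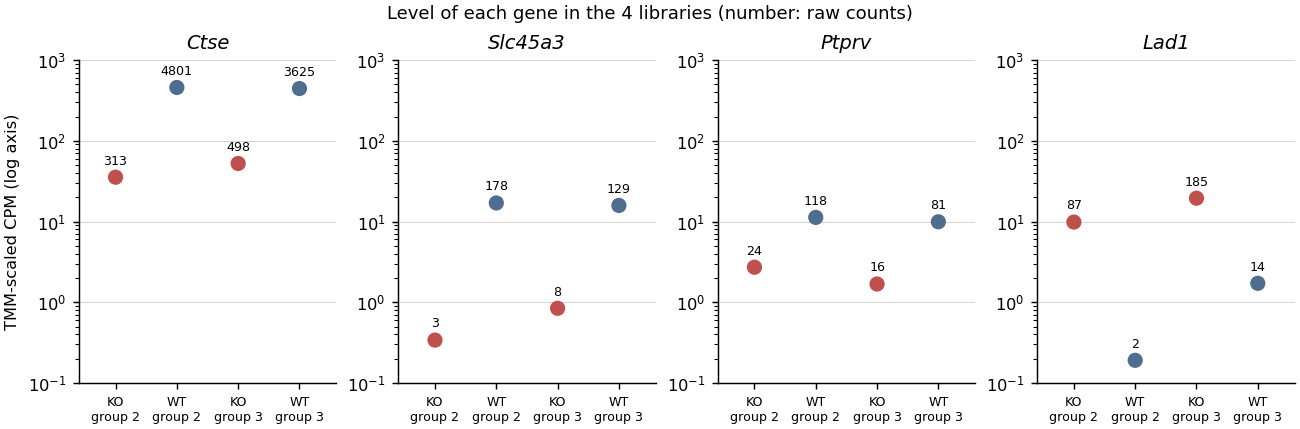
TMM-scaled CPM on a log axis of Ctse, Slc45a3, Ptprv and Lad1, 1 point per library, with raw counts printed above each point (KO means a library labelled KO, in red, and WT is in blue). Ctse, Slc45a3 and Ptprv are lower in both libraries labelled KO, such as Slc45a3 with 3 and 8 counts against 178 and 129 in WT, and Lad1 is higher in both.

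Past 2-fold with an interval excluding 1, all 4 genes differed between the genotypes at both steps, Ctse, Slc45a3 and Ptprv lower and Lad1 higher. The choice of the genes fixes that count. Of all measured genes, 8.9% passed in group 2 (6.45% higher and 2.45% lower) and 7.8% in group 3 (2.2% higher and 5.6% lower), while 1.21% passed the same way at both steps, 0.536% lower and 0.673% higher. That is 151 of 12490 genes, and 164 passed in opposite directions at the 2 steps. Genes of the window that moved the same way at both steps were ranked by the smaller of the 2 log2 folds without its sign. Ptprv was the lowest of the 4 at 1.87, and the next gene was Rnpep at 0.77. The ranking uses the contrast that chose the 4 genes, so it describes that choice as well.

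Levels of different genes were compared per length, with the RPKM the authors deposited. Ctse stood at 18.9 RPKM in KO group 2 and 27.8 RPKM in KO group 3, against 252 and 243 RPKM in WT groups 2 and 3. From the top of the 12490 measured genes it ranked 5305th and 4374th in the libraries labelled KO of groups 2 and 3, against 511th and 506th in WT. In both libraries labelled KO the order was Ctse, Lad1 (6.21 and 12.2 RPKM in groups 2 and 3), Ptprv (2.87 and 1.77) and Slc45a3 (0.163 and 0.401). The order in both WT libraries was Ctse, Ptprv (12.3 and 10.8 RPKM in groups 2 and 3), Slc45a3 (8.39 and 7.79) and Lad1 (0.124 and 1.11). Lad1 was thus the lowest of the 4 in WT and above Ptprv and Slc45a3 in the libraries labelled KO. Neighbours in these orders have no replicate spread to be set against.

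The step from group 2 to group 3 is the contrast that did not choose the genes. Between group 3 and group 2, Ctse stood at a ratio of 1.48 in the libraries labelled KO (1.28 to 1.71) and 0.970 in WT (0.929 to 1.01). Slc45a3 stood at 2.48 in the libraries labelled KO (0.595 to 14.5) and 0.931 in WT (0.737 to 1.18). Ptprv stood at 0.620 in the libraries labelled KO (0.308 to 1.22) and 0.882 in WT (0.656 to 1.18). Lad1 stood at 1.98 in the libraries labelled KO (1.52 to 2.58) and 9.0 in WT (2.07 to 81.5), where it rested on 14 counts over 2. Past 2-fold between the steps, 0 of the 4 genes passed in the libraries labelled KO and Lad1 alone passed in WT, where 7.85% (1.9% higher and 5.95% lower) and 7.09% (5.22% higher and 1.87% lower) of all measured genes passed.

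Over both genotypes, the quasi-likelihood test of edgeR with genotype and sorted group as terms, and Benjamini-Hochberg adjustment over all 12490 genes, called Lad1 higher in group 3 by 1.40 (log2, SE 0.43, adjusted p 0.0337), where 3.34% of all genes were called (2.2% higher and 1.14% lower). The call was lost with DESeq2 (adjusted p 0.452), with limma-voom (0.357) and with every other filter tried. The edgeR effects of the other 3 genes were 0.23 for Ctse (SE 0.15, adjusted p 0.701), 0.15 for Slc45a3 (SE 0.41, adjusted p 0.9997) and -0.38 for Ptprv (SE 0.44, adjusted p 0.953). The model has 1 residual degree of freedom, and its error is the part of the step that differs between the genotypes and not variation between mice.

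The other genes of the window had folds spread on both sides of 0. Besides them, 120 genes start in the window, of which 48 were measured and 72 stayed under 2 CPM in every library. Of the 48, 24 had a log2 fold above 0 and 24 below 0 in group 2, and 26 and 22 in group 3. Their median log2 fold was 0.01 in group 2 and 0.07 in group 3, beside 0.00 and 0.00 over all measured genes. Past 2-fold, 4 of the 48 differed in group 2 (8.33%, beside 8.9% of all measured genes) and 6 in group 3 (12.5%, beside 7.8%). The same way at both steps, 0 of the 48 did so, beside 1.21% of all measured genes. The window genes that did so are the 4 that were chosen, so that 0 follows from the choice and is no result about the window. In 39 of the 48, the fold stayed under 2 at both steps.

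**Figure D2:**
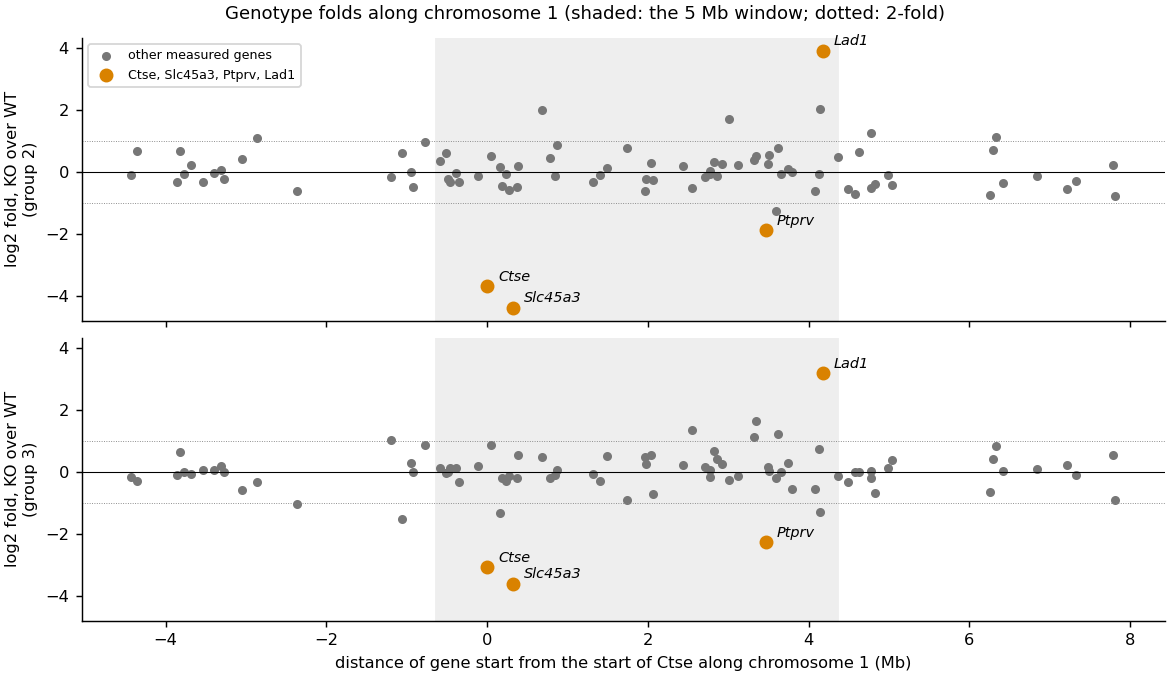
Log2 fold of KO over WT in group 2 (upper panel) and group 3 (lower panel) for every measured gene by the distance of its start from the start of Ctse in Mb, with the 5 Mb window shaded and dotted lines at 2-fold. The other measured genes of the window lie between -1.27 and 2.03 in group 2 and between -1.33 and 1.64 in group 3. Ctse, Slc45a3, Ptprv and Lad1 lie outside these ranges. In group 2, however, Ptprv at -1.87 is smaller in size than the highest of the other genes, Tnni1 at 2.03. Ctse, Slc45a3, Ptprv and Lad1 were chosen by their counts, so their separation describes that choice as well.

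Between Ctse and Slc45a3 lie 5 measured genes, and 0 of them was called for genotype by edgeR. Rab7b, a small GTPase of late endosomes that begins 13.2 kb beyond the end of Ctse, had 14 counts in KO group 2 against 10 in WT group 2, and 25 in KO group 3 against 10 in WT group 3. Rab29, a small GTPase of the Golgi and lysosomes, had 362 counts in KO group 2 against 452 in WT group 2, and 375 in KO group 3 against 392 in WT group 3. The magnesium transporter gene Slc41a1 had log2 folds of -0.46 and -0.20 in groups 2 and 3. Nucks1, which encodes a chromatin protein and ends 26.6 kb before Slc45a3, had -0.60 and -0.13. Pm20d1, which encodes a secreted enzyme that makes N-acyl amino acids, was low throughout, with 7 counts in KO group 2 against 7 in WT group 2, and 5 in KO group 3 against 17 in WT group 3. None of the 5 passed 2-fold the same way at both steps.

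Elk4, an ETS transcription factor gene, starts 24.6 kb beyond Slc45a3 on the same strand. It had 699 counts in KO group 2 against 1174 in WT group 2, and 708 counts in KO group 3 against 703 in WT group 3. Its ratios were 0.706 (0.642 to 0.776) and 0.864 (0.778 to 0.961), and edgeR did not call it for genotype (log2 effect -0.36, SE 0.16, adjusted p 0.275). On the far side of Ctse, Fam72a had 78 counts in KO group 2 against 102 in WT group 2, and 62 in KO group 3 against 46 in WT group 3.

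Ptprv and Ptpn7 start 106 bases apart on opposite strands and differed in what they did. Ptpn7, a phosphatase of MAP kinases in blood cells, had 2468 counts in KO group 2 against 2449 in WT group 2, and 2496 in KO group 3 against 1936 in WT group 3. Its log2 folds were 0.26 and 0.15, against -1.87 and -2.26 for Ptprv, and edgeR did not call it (adjusted p 0.653). The start of Ptprv lies inside the Ptpn7 region printed above. On the other side of Ptprv, the stem cell receptor gene Lgr6 had 9 counts in KO group 2 against 6 in WT group 2, and 39 in KO group 3 against 8 in WT group 3. Reads were counted without a stated strand setting, so reads of Ptprv and of its antisense partner Gm10535 cannot be told apart, and Gm10535 was listed at 0 in each library.

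Beside Lad1, the nearest measured genes did not rise at both steps as it did. Tnni1, a troponin of slow muscle that ends 7.61 kb before Lad1, had 24 counts in KO group 2 against 3 in WT group 2. In group 3 it had 2 counts in the library labelled KO against 10 in WT. Its log2 folds were 2.03 and -1.28, so it passed 2-fold in the direction of Lad1 in group 2 only. Phlda3, a p53 target that restrains AKT, had 48 counts in KO group 2 against 60 in WT group 2, and 52 in KO group 3 against 25 in WT group 3. Tmem9, the next measured gene beyond Lad1 at a distance of 175 kb, had 976 counts in KO group 2 against 827 in WT group 2. In group 3 it had 979 counts in the library labelled KO against 928 in WT. After scaling, its log2 folds were 0.48 in group 2 and -0.14 in group 3.

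Over both steps, edgeR with the same terms called 3 of the 48 other genes for genotype, 2 higher and 1 lower, which is 6.25% of them beside 4.78% of all measured genes (2.93% higher and 1.85% lower). Rnpep, which encodes aminopeptidase B and lies between Ptprv and Lad1, rose by 1.01 (log2, SE 0.18; edgeR, adjusted p 1.77e-06), with 676 counts in KO group 2 against 468 in WT group 2 and 868 in KO group 3 against 315 in WT group 3. Csrp1, a LIM protein of the actin cytoskeleton, fell by 0.58 (SE 0.15; edgeR, adjusted p 0.00698), with 945 counts in KO group 2 against 1713 in WT group 2 and 1021 in KO group 3 against 1280 in WT group 3. Ube2t, the ubiquitin-conjugating enzyme of the Fanconi anaemia pathway, rose by 0.76 (SE 0.23; edgeR, adjusted p 0.0203), with 241 counts in KO group 2 against 217 in WT group 2 and 329 in KO group 3 against 128 in WT group 3. With DESeq2 and the same model, Rnpep kept its call (adjusted p 0.00378), while Csrp1 (0.0782) and Ube2t (0.532) lost it. With 1 library left out and genotype alone in the model, since 3 libraries leave no residual degree of freedom for both terms, Rnpep was the only gene of the 3 called, in the fit without KO group 2. With genotype alone and all 4 libraries, none of the 3 was called.

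**Figure D3:**
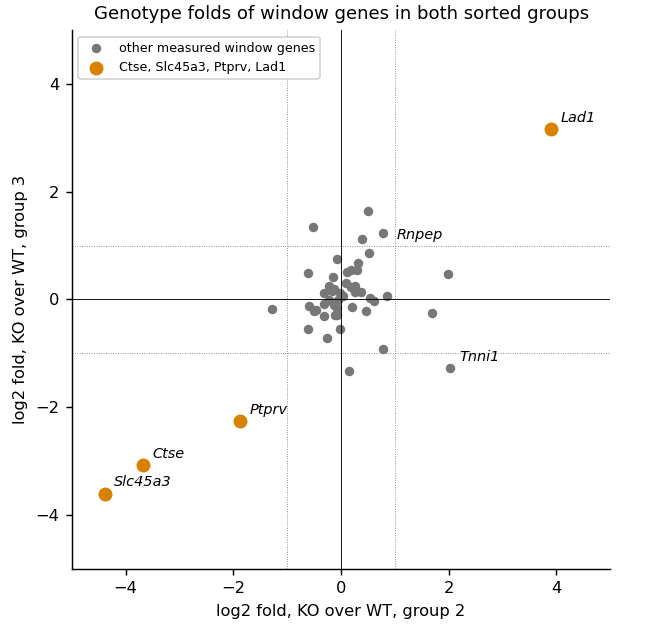
Log2 fold of KO over WT in group 2 (horizontal axis) against group 3 (vertical axis) for the 52 measured genes of the window, with dotted lines at 2-fold and Ctse, Slc45a3, Ptprv and Lad1 in orange. The 4 lie beyond 2-fold on both axes, Rnpep is past 2-fold on the vertical axis at 1.23, and Tnni1 is at 2.03 and -1.28.

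Beside Ptpn7, the other genes of the window with the highest mean CPM were Btg2, Rassf5 and Kdm5b, and their folds stayed under 2. The antiproliferative gene Btg2, a p53 target, had 5370 counts in KO group 2 against 5595 in WT group 2, and 6441 in KO group 3 against 4690 in WT group 3, log2 folds of 0.19 and 0.24. Rassf5, a RAP1 effector of lymphocyte adhesion, had log2 folds of -0.32 and 0.13, and Kdm5b, a histone demethylase, of 0.27 and 0.25. Ikbke, which encodes a kinase of interferon signalling, was the 1 other gene of the window that edgeR called for sorted group, higher in group 3 by 0.67 (SE 0.16, adjusted p 0.00253; DESeq2 adjusted p 0.0660).

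The stretches on either side of the window were compared in the same way. In the 5 Mb before it, 18 genes were measured, with median log2 folds of -0.02 and 0.00 in groups 2 and 3, and edgeR called 0 of them for genotype. In the 5 Mb after it, 18 genes were measured, with medians of -0.33 and 0.01. Of these, edgeR called 3, 1 higher and 2 lower, which is 16.7% beside 4.78% of all measured genes. In neither stretch did a gene pass 2-fold the same way at both steps. Over the rest of chromosome 1, 7 of 711 measured genes did so, 0.985%, beside 1.21% over all genes. The labels give C57BL/6 for all 4 libraries and gene counts carry no strain marker, so whether the window holds a segment of another strain was not tested.

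Genes with the most similar pattern over the 4 libraries were found by the distance between log2 levels centred on each gene's mean, among 8633 named genes with 10 CPM in at least 1 library. Ctse and Slc45a3 were each other's nearest gene, at a distance of 0.626. The next for Ctse were Ptprv at 1.53 and the homeobox gene Hoxa7 on chromosome 6 at 1.56. For Slc45a3, Hoxa7 at 1.85 and Ptprv at 2.12 followed. For Ptprv the nearest were Arl5c, a small GTPase of the ARL family on chromosome 11, at 0.253, the kallikrein gene Klk1b22 on chromosome 7 at 0.673 and Tmem242 on chromosome 17 at 0.724. For Lad1 they were the granzyme gene Gzmc on chromosome 14 at 1.30, the antiviral gene Oas1a on chromosome 5 at 1.51 and the NRF2 target Nqo1 on chromosome 8 at 1.57. Since the 4 genes were chosen for how they moved, the distances among them describe that choice.

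Among the proteases of endosomes and lysosomes, the genes other than Ctse moved in both directions in group 2. Of the 13 other measured genes of that list, edgeR called 1 higher and 0 lower for genotype, beside 2.93% higher and 1.85% lower over all measured genes. The median log2 folds of the 13 were 0.26 and 0.06 in groups 2 and 3. Ctsh, cathepsin H, rose by 1.43 (SE 0.36; edgeR, adjusted p 0.00283), with 18.2 RPKM in KO group 2 against 3.86 in WT group 2, and 8.09 in KO group 3 against 5.70 in WT group 3. Ctsd, the aspartic cathepsin D that is closest in kind to cathepsin E, had 459 RPKM in KO group 2 against 467 in WT group 2, and 458 in KO group 3 against 485 in WT group 3. The aspartic protease gene Bace1 had 5.07 RPKM in KO group 2 against 10.2 in WT group 2, and 3.13 in KO group 3 against 4.41 in WT group 3. Napsa, another of them, had 4.39 RPKM in KO group 2 against 1.43 in WT group 2, and 2.48 in KO group 3 against 2.57 in WT group 3. By RPKM, Ctse was number 10 of the 14 genes in both libraries labelled KO, and number 3 in both WT libraries, after Ctsd and Ctsa. It made up 1.34% of their summed RPKM in KO group 2 and 1.92% in KO group 3, against 16.5% in WT group 2 and 14.6% in WT group 3.

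**Figure D4:**
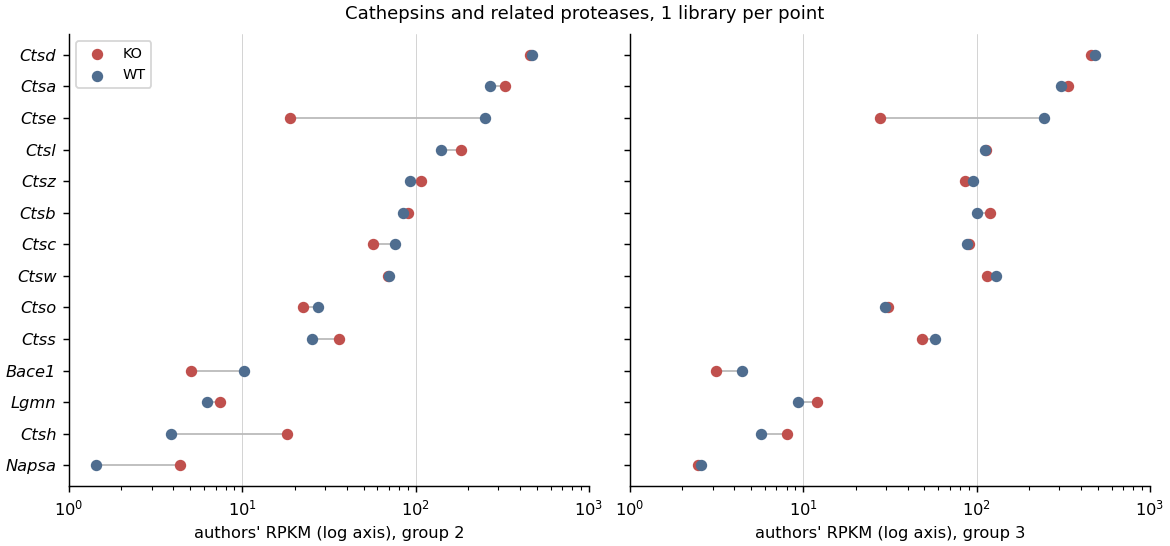
RPKM as deposited by the authors, on a log axis, of 14 endosomal and lysosomal proteases in group 2 (left) and group 3 (right), 1 point per library (red: library labelled KO, blue: WT), with a grey line joining both genotypes. Ctse is at 18.9 and 27.8 RPKM in the libraries labelled KO and at 252 and 243 RPKM in WT, while Ctsd lies between 458 and 485 RPKM throughout.

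Genes of MHC class II presentation, the process in which cathepsin E is known, had median log2 folds of 0.49 and 0.12 in groups 2 and 3, and of 13 measured 1 rose and 0 fell for genotype by edgeR. That gene was Cd74, the invariant chain, at 0.50 (SE 0.15; edgeR, adjusted p 0.0256), with 174 RPKM in KO group 2 against 98.0 in WT group 2, and 144 in KO group 3 against 136.4 in WT group 3. None of these genes was lower with Ctse by the test, which called 2.93% of all measured genes higher and 1.85% lower. Cells other than thymocytes that are known for Ctse were checked by their markers. The 10 B cell markers summed to 87.9 CPM in KO group 2 against 68.4 in WT group 2, and to 66.2 in KO group 3 against 62.5 in WT group 3, with 0 of 7 measured called by edgeR. The 13 macrophage and dendritic cell markers summed to 101 CPM in KO group 2 against 60.6 in WT group 2, and to 111 in KO group 3 against 75.4 in WT group 3, with C1qb called higher (1.12, SE 0.34; edgeR, adjusted p 0.0239) and Fcgr1 at 0 in WT group 2. The 11 erythroid markers summed to 542 CPM in KO group 2 against 366 in WT group 2, and to 401 in KO group 3 against 412 in WT group 3, with 0 of 7 measured called by edgeR. Among them, Klf1 was at 0 in KO group 2, Epb42 in KO group 3 and Slc4a1 in both group 3 libraries. All 3 sums stood higher in KO group 2 than in WT group 2. In group 3, the B cell sum and the macrophage and dendritic cell sum stood higher in the library labelled KO, and the erythroid sum lower. Ctse was lower at both steps, and the part of these cells in its difference was not tested.

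Among sugar transporters of the SLC45 and SLC2 families, 5 genes beside Slc45a3 were measured and edgeR called 0 for genotype (DESeq2 0), with medians of 0.03 and 0.01. Its relative Slc45a4 had 5.44 RPKM in KO group 2 against 5.60 in WT group 2, and 4.999 in KO group 3 against 4.30 in WT group 3. Among receptor tyrosine phosphatases, 13 genes beside Ptprv were measured and edgeR called 0 (DESeq2 0), with medians of 0.35 and -0.28. The p53 target list had 20 measured genes beside Ptprv, of which 2 rose and 0 fell for genotype by edgeR, with medians of -0.07 and 0.21. They were the pro-death gene Bbc3 (0.79, SE 0.19; edgeR, adjusted p 0.00162) and the stress gene Sesn2 (1.01, SE 0.29; edgeR, adjusted p 0.0172). Beside these lists, edgeR called 4.78% of all measured genes for genotype, 2.93% higher and 1.85% lower. DESeq2 called none of Ctsh, Cd74, C1qb, Bbc3 and Sesn2. Mdm4, the p53 inhibitor gene that lies in the window, had log2 folds of -0.32 and -0.08.

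Among basement membrane and hemidesmosome genes, 10 genes beside Lad1 were measured and edgeR called 0 (DESeq2 0), where it called 4.78% of all measured genes. Their medians were 0.51 and -0.25. The laminin gene Lamb3 had 3.75 RPKM in KO group 2 against 2.47 in WT group 2, and 2.11 in KO group 3 against 2.43 in WT group 3. The 14 thymic epithelium markers summed to 50.6 CPM in KO group 2 against 58.6 in WT group 2, and to 52.5 in KO group 3 against 45.2 in WT group 3, and edgeR called 0 of the 5 measured (DESeq2 0). Of the 14 markers, 3 and 6 were at 0 in the libraries labelled KO of groups 2 and 3, against 3 and 4 in WT. Cldn3 and Elf3 were at 0 throughout, and Krt5, Psmb11, Krt14 and Foxn1 were at 0 in KO group 3. The median log2 fold of the 5 measured was -0.32 in group 2 and 0.36 in group 3. The macrophage and dendritic cell sum given above was higher beside Lad1 at both steps, and the thymic epithelium sum in group 3. The part of either in the difference of Lad1 was not tested.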

How the data were processed

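Transcripts of sorted thymocytes were measured by RNA sequencing in 4 libraries, 1 per combination of genotype and sorted group. The authors deposited a table of raw counts per Ensembl gene and a table of RPKM for each library. The submitters' processing notes name TopHat2 2.0.12 and mm10. How reads were assigned to genes, with which annotation and strand setting, is not given in the sources used here. The deposited RPKM gave, with the counts and totals, a whole gene length within 0.01 bp for 100% of genes with counts. Of 35275 gene IDs, 34490 were matched to GENCODE M21 for symbols and mm10 positions, and the 785 unmatched stayed in the totals. A gene belongs to the window if its lower coordinate lies in the 5 Mb window.

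Counts were scaled by TMM (edgeR 4.0.16, R 4.3.3), and genes at 2 CPM or more in any library count as measured. Log2 folds used CPM plus 0.5. Ratios carry exact conditional binomial (Clopper-Pearson) 95% intervals. A gene passed 2-fold if its interval also excluded 1. The edgeR quasi-likelihood F test had terms for genotype and sorted group, leaving 1 residual degree of freedom, and a threshold of 0.05. Standard errors were derived from its F statistic. The spread comes from the trend over genes (common dispersion 0.0288). DESeq2 1.42.0, limma 3.58.1 (voom), other filters, scalings and windows, and leaving out 1 library (with the tested factor alone in the model) were alternatives. The named genes were the 4 genes, Uba3, Elk4, p53 targets in the window, nearest measured neighbours, called and most abundant window genes, the nearest genes by pattern and up to 4 genes of each list. The members and lists were chosen with earlier results of these data known. Not every gene that the rule took is printed, and Slc45a4, Lamb3, Bace1, Napsa and marker genes at 0 were named outside it, after their values were seen. The value of 1 erythroid marker is not reported here.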

Additional observations from a re-analysis of the deposited data

Results flagged for a closer look

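Tnni1, the troponin gene next to Lad1, went past 2-fold in opposite directions at the 2 steps, with a log2 fold of KO over WT of 2.03 in group 2 and -1.28 in group 3. It rested on 24 counts in KO group 2 against 3 in WT group 2, and 2 in KO group 3 against 10 in WT group 3. The difference between the steps was not tested. It was the 1 gene of the 48 other measured window genes that did so. Over all 12490 measured genes, 164 went past 2-fold in opposite directions and 151 the same way.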

How the results depend on the processing

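Under DESeq2 size factors and plain library totals, the 4 genes kept their direction and moved within their counting intervals, and those scalings shifted the median of all genes by at most 0.06 (log2). With a pseudocount of 2 CPM, the log2 folds of KO over WT shrank to -3.02 in group 2 and -2.65 in group 3 for Slc45a3, 2.43 and 2.53 for Lad1, and -1.70 in group 3 for Ptprv, and the step of Lad1 in WT to 0.76. With the authors' RPKM and a pseudocount of 0.5, Slc45a3 stood at -3.75 and -3.20 in groups 2 and 3 and Lad1 at 3.43 in group 2. The cause of these shifts is the added pseudocount, which weighs most on levels near 0.

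The count of other window genes past 2-fold between KO and WT (4 in group 2 and 6 in group 3) became 2 and 3 with a pseudocount of 2 CPM, 0 and 2 with a filter of 10 CPM, and 10 and 11 with no filter, where 0 of the 72 genes under 2 CPM passed the same way at both steps. At 10 CPM, the shares in groups 2 and 3 were 0% and 5.88% of these genes, beside 3.1% and 2.3% of all genes. Between group 3 and group 2, 4 of the 48 other window genes passed in the libraries labelled KO and 5 in WT, beside 7.85% and 7.09% of all measured genes. These counts became 0 and 1 at 10 CPM and 10 and 12 with no filter. With the larger pseudocount the count in WT became 1. Of these genes, edgeR called 3 for genotype, against 1 with DESeq2, 0 with genotype alone in the model and 0 to 1 with genotype alone and 1 library left out. For sorted group it called 1, against 0 with DESeq2, 0 with sorted group alone, 0 to 0 with sorted group alone and 1 library left out and 2 in a window 1 Mb longer on each side.

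The edgeR effect of sorted group on Lad1 (1.40) lost its call at 1.66 with DESeq2, 1.11 with sorted group alone in the model, 1.03 with limma-voom, 1.36 with a filter of 10 CPM, 1.41 without any filter and 1.40 with filterByExpr; the last 4 were chosen after seeing the data, and the adjusted p ranged over 0.0556 to 0.9998 where it was lost. The cause was not tested. With 1 library left out, both terms leave no residual degree of freedom, so those fits changed the model as well as the libraries, and the loss of calls cannot be put down to either alone. No paired analysis was possible because each group held 1 library. Depth limits Slc45a3 in KO and Lad1 in WT group 2, where 2 to 8 counts remained.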
